A study of Mus musculus with 12 samples.

Results

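Hematopoietic cluster cells (HC) that did and did not express a Ly6a-GFP reporter were compared across all genes in mouse embryos at embryonic day 11.5, 3 libraries against 3. Of 33531 genes with values, the 12730 that reached 1 FPKM (fragments per kilobase of transcript, scaled to the mapped fragments of the library) in at least 3 of these 6 libraries were tested. The 6 libraries belong to a study of 12 on CD27 as a marker of stem cells in the embryo, in which the other 6 hold GFP+ and GFP− endothelial cells (EC) of the same arteries. The 2 groups described here are GFP+ HC and GFP− HC, each sorted as positive for CD31, CD144, ESAM and c-Kit and then divided by the reporter, and the EC carry the same endothelial proteins without c-Kit.

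All 12 libraries came from 122 pooled embryos that carried the transgene Tg(Ly6a-GFP) on the B6129S background. Their mothers were F1 hybrids (C57BL/6 x 129S1/SVImJ) and their fathers carried the transgene. The aorta and the umbilical and vitelline arteries were taken, and the sort gave 53000 GFP+ HC and 413000 GFP− HC, beside 377000 GFP+ EC and 791000 GFP− EC. Each population was divided into 3 samples that the labels call independent, and the cell number of each is not given in the sources used here. GFP reports the transgene and not the Ly6a gene itself, and no group lacked the transgene.

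The clusters on the inner wall of the large arteries form when hemogenic endothelial cells leave the vessel wall and take on a blood identity, a step that needs the transcription factor RUNX1. The first hematopoietic stem cells of the embryo arise there, next to progenitors of red cells, megakaryocytes and myeloid cells. Ly6a encodes Sca-1, a surface protein of adult mouse stem cells, and in embryos with this reporter the stem cells that can repopulate an adult have been found among the GFP+ cells.

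GFP+ HC carried more RNA for 16 of 43 blood transcription factors, 14 of 38 surface proteins and 12 of 50 signalling and cytoskeletal proteins of leukocytes. The last list's share of summed FPKM overlapped between the groups. GFP+ HC carried less RNA for 8 of 8 globins and 14 of 25 red cell membrane proteins. Among arterial and Notch genes 7 of 26 were higher and 1 was lower. Among venous and lymphatic genes 4 of 16 were lower and 2 higher, with a median log2 difference of 0.00. Of the 12730 genes, 404 were higher in GFP+ HC (3.17%) and 176 were lower (1.38%), together 4.56%, at an adjusted p of 0.05 (limma on log2(FPKM + 1)). The median log2 difference was 0.88 among the 404 genes and −0.75 among the 176. Of the higher genes 170 passed a log2 difference of 1 and 19 passed 2, and of the lower genes 44 passed −1 and 14 passed −2. No called gene had overlapping libraries. Among all tested genes 13.1% had all 3 GFP+ values above all 3 GFP− values and 10.6% the reverse. The calls were made on these same values, so separated groups of a called gene, here and below, are no further support. The counts depended on single libraries. They were 286 higher and 109 lower without GFP+ replicate 1, 240 and 97 without GFP+ replicate 3, 257 and 102 without GFP− replicate 1, and 234 and 88 without GFP− replicate 3.

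**Figure D1:**
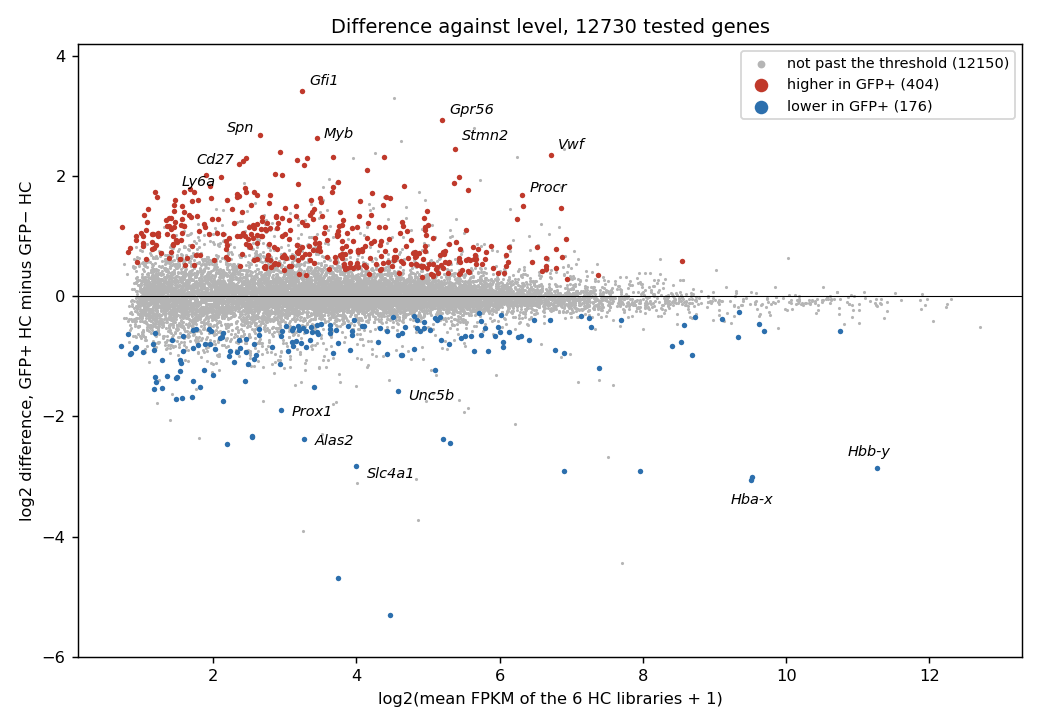
Each point is 1 of the 12730 tested genes, with the log2 of its mean FPKM + 1 over the 6 HC libraries on the horizontal axis and its log2 difference (GFP+ HC minus GFP− HC) on the vertical axis. The 404 higher genes are red and the 176 lower genes blue, and the globins Hbb-y and Hba-x lie at −2.86 and −3.01 among the abundant genes.

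The genes that define the sort and the reporter were read first. Ly6a stood at 6.83, 7.09 and 3.57 FPKM in GFP+ HC, against 0.778, 1.47 and 0.0538 FPKM in GFP− HC (log2 difference 1.99 ± 0.37, adjusted p = 0.00994, the SE after ±). The GFP+ libraries all lay above the GFP− libraries, although Ly6a was a weakly expressed gene in both, and with a pseudocount of 0.1 the call was lost at a log2 difference of 3.25. The log2(FPKM + 1) scale understates the change of such weak genes. Kit, the receptor used in the gate, was at 34.2, 39.2 and 33.2 FPKM in GFP+ HC and 19.2, 25.8 and 19.1 FPKM in GFP− HC (log2 difference 0.72 ± 0.15, adjusted p = 0.0193). The Kit groups did not overlap, but the call was lost when GFP+ replicate 1 or 2 or GFP− replicate 1 or 3 was left out. The other gate genes, Pecam1 (CD31), Cdh5 (CD144) and Esam, had overlapping values and log2 differences of 0.20, 0.09 and 0.28 that did not pass the test. Ptprc, which encodes the pan-leukocyte protein CD45, was at 9.75, 7.97 and 13.2 FPKM in GFP+ HC and 6.93, 2.59 and 7.07 FPKM in GFP− HC. These Ptprc groups did not overlap but missed the threshold (log2 difference 0.86 ± 0.29, adjusted p = 0.145).

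Both groups also held RNA known from cells outside the gate. The 24 macrophage genes with values, C1qb and Csf1r among them, made up 0.209%, 0.0731% and 0.382% of the summed FPKM of the 3 GFP+ libraries, against 0.228%, 0.0744% and 0.184% of the 3 GFP− libraries. The 24 mesenchyme and smooth muscle genes, Col1a1 among them, made up 0.122%, 0.0552% and 0.0679% in GFP+ HC, against 0.266%, 0.0878% and 0.259% in GFP− HC. In each group the library numbered 2 was lowest in both kinds of RNA, the groups overlapped, and GFP+ replicate 3 was highest in macrophage RNA. With those 2 libraries left out, a choice made after the values were seen, 168 genes were higher and 50 lower. The sums of FPKM were 564813 to 605093 in GFP+ HC and 589717 to 612749 in GFP− HC. FPKM keeps no read number, so the depth behind each value is unknown. A further 15 tested genes were listed at 0 in 1 HC library and at 10 FPKM or more in the other 5, such as Ddb1 in GFP+ replicate 1 and Trp53 in GFP− replicate 2. None of the 15 passed the threshold, and such a 0 may be a failed estimate.

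**Figure D2:**
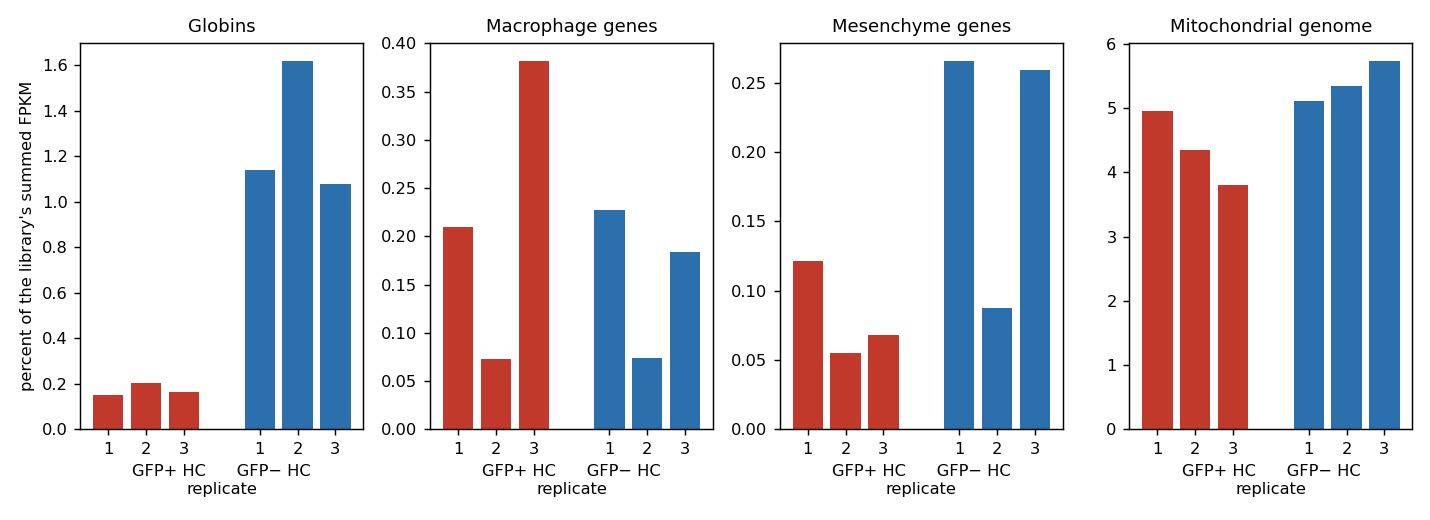
Bars give the share of each HC library's summed FPKM that came from 4 gene lists, in percent, with the 3 GFP+ HC libraries left (red) and the 3 GFP− HC libraries right (blue) in each panel. Globin RNA separates the groups, at 0.150% to 0.205% in GFP+ HC and 1.08% to 1.62% in GFP− HC, and so does mitochondrial RNA, at 3.80% to 4.96% in GFP+ HC and 5.11% to 5.73% in GFP− HC. Macrophage and mesenchyme RNA overlap between the groups and are lowest in replicate 2 of each.

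Promoter sequences are shown for some of the globin genes and Alas2, whose RNA fell together, and for Spn and Cd27, 2 surface protein genes whose RNA rose. Each is the 250 bases before the transcription start, written 5′ to 3′ from the RefSeq table of GRCm38.p6. Capitals mark matches on either strand to AGATAA or TGATAA (letters bound by GATA factors), to CACCC (the box bound by KLF1) and to GAGGAAG (an ETS core), none of which overlap one another.
Hbb-y (chr7:103853208-103853457, minus strand): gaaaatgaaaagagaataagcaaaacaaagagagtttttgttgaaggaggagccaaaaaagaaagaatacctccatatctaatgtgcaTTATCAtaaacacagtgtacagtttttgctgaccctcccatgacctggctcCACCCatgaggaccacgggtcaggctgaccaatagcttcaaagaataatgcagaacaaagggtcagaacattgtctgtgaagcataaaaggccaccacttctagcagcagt
Hbb-bs (chr7:103827929-103828178, minus strand): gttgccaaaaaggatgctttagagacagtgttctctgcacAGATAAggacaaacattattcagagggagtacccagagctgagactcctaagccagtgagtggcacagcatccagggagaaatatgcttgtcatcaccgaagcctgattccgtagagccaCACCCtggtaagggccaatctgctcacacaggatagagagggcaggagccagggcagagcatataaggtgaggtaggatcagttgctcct
Hba-x (chr11:32276350-32276599, plus strand): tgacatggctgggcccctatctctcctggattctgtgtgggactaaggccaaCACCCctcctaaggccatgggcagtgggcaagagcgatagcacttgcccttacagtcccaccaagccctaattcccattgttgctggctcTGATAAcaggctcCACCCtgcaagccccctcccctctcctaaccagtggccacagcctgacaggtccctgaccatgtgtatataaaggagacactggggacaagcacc
Hba-a1 (chr11:32283422-32283671, plus strand): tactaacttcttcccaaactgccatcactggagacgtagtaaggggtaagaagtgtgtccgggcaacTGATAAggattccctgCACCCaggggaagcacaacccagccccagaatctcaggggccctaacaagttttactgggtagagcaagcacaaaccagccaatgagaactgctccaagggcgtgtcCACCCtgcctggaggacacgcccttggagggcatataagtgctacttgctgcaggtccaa
Alas2 (chrX:150547167-150547416, plus strand): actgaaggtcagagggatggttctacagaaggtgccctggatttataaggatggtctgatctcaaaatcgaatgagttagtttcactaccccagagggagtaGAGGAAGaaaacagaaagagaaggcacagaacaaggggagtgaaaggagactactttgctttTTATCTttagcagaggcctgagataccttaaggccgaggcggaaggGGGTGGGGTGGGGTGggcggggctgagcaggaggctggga
Spn (chr7:127137824-127138073, minus strand): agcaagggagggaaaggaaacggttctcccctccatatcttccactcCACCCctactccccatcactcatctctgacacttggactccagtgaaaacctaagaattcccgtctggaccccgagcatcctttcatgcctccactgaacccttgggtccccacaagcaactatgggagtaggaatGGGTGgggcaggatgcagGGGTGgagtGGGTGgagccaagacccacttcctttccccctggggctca
Cd27 (chr6:125237028-125237277, minus strand): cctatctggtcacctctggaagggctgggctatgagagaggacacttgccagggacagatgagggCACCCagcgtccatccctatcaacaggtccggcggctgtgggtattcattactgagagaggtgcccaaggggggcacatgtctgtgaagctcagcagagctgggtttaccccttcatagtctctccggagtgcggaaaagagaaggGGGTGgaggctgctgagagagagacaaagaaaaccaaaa
All 5 windows printed for genes that fell hold GATA letters, but not all windows of the tested globins do. The windows of Spn and Cd27, only 2 of the genes that rose, hold none, like most windows of the RefSeq table. Over all 32851 windows of that length in the table, 16.6% held one or other GATA motif, 52% held CACCC and 10.6% held GAGGAAG. Of the 8 globin genes tested, 7 had a window, of which 5 held GATA letters and 6 held CACCC. A match describes letters only, and the data here do not measure binding.

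All 8 tested globins were lower in GFP+ HC, against 1.38% of all tested genes, with a median log2 difference of −2.88 beside 0.00 over all genes. Hbb-y, the embryonic epsilon-type beta chain, fell to 501, 663 and 601 FPKM in GFP+ HC, against 3744, 5485 and 3745 FPKM in GFP− HC (log2 difference −2.86 ± 0.34, adjusted p = 0.000754). Hba-x, the embryonic zeta chain, was at 138, 203 and 142 FPKM in GFP+ HC and 1223, 1659 and 1036 FPKM in GFP− HC (log2 difference −3.01 ± 0.41, adjusted p = 0.0018). Hba-a1, an alpha chain that is also made in the adult, was at 43.3, 71.2 and 59.7 FPKM in GFP+ HC and 408, 507 and 395 FPKM in GFP− HC (log2 difference −2.91 ± 0.35, adjusted p = 0.000849). In all 3 genes the GFP− library numbered 2 was highest, and every GFP− library lay above every GFP+ library. The adult beta chain Hbb-bs was at 6.87, 12.2 and 15.3 FPKM in GFP+ HC and 54.7, 89.4 and 53.4 FPKM in GFP− HC (log2 difference −2.45 ± 0.38, adjusted p = 0.00381). Hbb-bh1, Hba-a2, Hbb-bt and Hbq1b fell too, with log2 differences of −3.06, −2.90, −2.38 and −1.52. The Hbb-bt call was lost without GFP+ replicate 1 or GFP− replicate 2, and Hbq1b lost its call with a pseudocount of 0.1. Some globin copies, Hba-a1 with Hba-a2 and Hbb-bs with Hbb-bt, are nearly identical, so reads may be split between them. The values of these single genes are less certain than their common direction. The EC, sorted without c-Kit, also held globin RNA. It made up 0.172% to 0.408% of summed FPKM in GFP+ EC and 0.543% to 1.15% in GFP− EC. Which cells the globin RNA of HC and EC came from was not tested. In pooled cells, fewer red cell precursors and less globin RNA per cell cannot be told apart, and the same holds for every group below.

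Of 25 tested red cell membrane and surface genes 14 were lower and 2 higher in GFP+ HC, with a median log2 difference of −0.83. The count of lower genes was 8 without GFP+ replicate 1 and 9 without any one of the GFP− libraries. Slc4a1, the band 3 anion exchanger, fell to 2.73, 3.54 and 2.41 FPKM in GFP+ HC, against 27.3, 32.1 and 21.3 FPKM in GFP− HC (log2 difference −2.83 ± 0.32, adjusted p = 0.000537). Its groups did not overlap. The membrane skeleton protein beta-spectrin, from Sptb, was at 0.525, 0.597 and 0.509 FPKM in GFP+ HC and 4.74, 4.06 and 3.06 FPKM in GFP− HC (log2 difference −1.67 ± 0.16, adjusted p = 0.000181). The blood group genes Rhd and Kel fell with log2 differences of −2.33 and −2.35, the protein 4.2 gene Epb4.2 with −1.70 and the adhesion protein gene Ermap with −1.42. The 2 genes that rose are not restricted to red cells. Aqp1, a water channel that endothelium also makes, rose to 21.8, 26.7 and 27.3 FPKM in GFP+ HC, against 8.99, 12.3 and 7.05 FPKM in GFP− HC (log2 difference 1.35 ± 0.17, adjusted p = 0.000923). Cd59a, a complement inhibitor, rose by 0.50, a call that was lost without any one of the 6 HC libraries or of the 3 GFP+ EC libraries.

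Of 24 tested heme and iron genes 3 were lower and 2 higher, with a median of −0.17. Within each group the list's share of summed FPKM had the library order of macrophage RNA, whose part was not tested. Alas2, the erythroid enzyme of the first step, fell to 2.43, 2.16 and 1.71 FPKM in GFP+ HC, against 14.5, 17.8 and 13.1 FPKM in GFP− HC (log2 difference −2.38 ± 0.29, adjusted p = 0.000847). Slc25a37, which brings iron into the mitochondria of red cell precursors, was at 10.3, 9.89 and 8.25 FPKM in GFP+ HC and 18.6, 21.2 and 15.9 FPKM in GFP− HC (log2 difference −0.90 ± 0.14, adjusted p = 0.00365). Cpox, a later enzyme of the pathway, fell with a log2 difference of −0.48, and its call was lost without GFP+ replicate 1 or 3 or GFP− replicate 1 or 2. The higher genes were Tfr2, a second transferrin receptor, at 1.04 and lost with a pseudocount of 0.1, and the heme transporter Slc48a1 at 0.63. Leaving out any single library of the 12 ended the Slc48a1 call, except GFP− HC replicate 1. The ferritin genes Fth1 and Ftl1 did not pass, at 0.15 and 0.07, and both were highest in GFP+ replicate 3.

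Among 24 tested enzymes and regulators of red cells, 5 were lower and 1 higher, with a median of −0.11, and 3 were lower without GFP+ replicate 1 or 2 or GFP− replicate 1 or 2. Hemgn, a nuclear protein of red cell precursors, was at 0.897, 1.64 and 0.560 FPKM in GFP+ HC and 5.03, 7.60 and 4.72 FPKM in GFP− HC (log2 difference −1.75 ± 0.30, adjusted p = 0.00638). The red cell pyruvate kinase gene Pklr and the ubiquitin ligase gene Trim10 fell with log2 differences of −1.34 and −1.34. Klf1, the transcription factor that activates adult beta-globin, was at 0.837, 0.757 and 0.873 FPKM in GFP+ HC and 2.61, 4.63 and 1.95 FPKM in GFP− HC (log2 difference −1.10 ± 0.25, adjusted p = 0.0285). The Klf1 groups did not overlap, but the call was lost without any one of the GFP+ libraries or without GFP− replicate 1 or 2. Cited4 fell with a log2 difference of −1.31, a call lost without GFP+ replicate 1 or 2 or GFP− replicate 1 or 2. The exception was Nfe2, a factor of both red cells and megakaryocytes, which rose to 11.7, 18.7 and 17.6 FPKM in GFP+ HC, against 4.11, 5.42 and 3.76 FPKM in GFP− HC (log2 difference 1.63 ± 0.32, adjusted p = 0.0132). The Nfe2 call was lost without GFP+ replicate 3 or GFP− replicate 1 or 3.

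Of 43 tested blood transcription factors 16 were higher and 1, Klf1, was lower, with a median log2 difference of 0.42. Gfi1, a repressor that shuts down endothelial genes at the transition to blood, was at 11.3, 24.2 and 13.8 FPKM in GFP+ HC and 0.315, 0.901 and 0.481 FPKM in GFP− HC (log2 difference 3.42 ± 0.30, adjusted p = 8.4e-05). Myb, which definitive but not primitive blood formation needs, was at 16.9, 22.1 and 14.6 FPKM in GFP+ HC and 1.99, 1.96 and 2.05 FPKM in GFP− HC (log2 difference 2.63 ± 0.20, adjusted p = 3.75e-05). Both genes were low in every GFP− library and highest in GFP+ replicate 2. Hlf, a factor of hematopoietic stem cells that was named after its values were seen, was at 7.45, 10.1 and 5.95 FPKM in GFP+ HC and 0.756, 0.791 and 0.938 FPKM in GFP− HC (log2 difference 2.25 ± 0.38, adjusted p = 0.00612). Mecom, which maintains stem cells, was at 22.7, 25.9 and 22.5 FPKM in GFP+ HC and 10.8, 13.02 and 12.5 FPKM in GFP− HC (log2 difference 0.92 ± 0.11, adjusted p = 0.000688). Mycn, which supports growth of stem and progenitor cells, was at 35.9, 43.6 and 36.7 FPKM in GFP+ HC and 18.7, 25.6 and 19.5 FPKM in GFP− HC (log2 difference 0.84 ± 0.12, adjusted p = 0.00189). The Hlf, Mecom and Mycn groups stood apart, with Mecom and Mycn already well expressed in GFP− HC.

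The remaining risers of that list belong to several families. Ikzf2, a zinc finger factor of the Ikaros family, rose by 1.51 ± 0.15, Stat4, which carries interleukin signals, by 1.40 ± 0.19, and the homeobox factor Nkx2-3 by 0.77 ± 0.10. The ETS factor Elf1 rose by 0.71 ± 0.10. A further 4 members were named after their values were seen. Runx1, the master factor of the transition, was at 12.6, 13.1 and 16.1 FPKM in GFP+ HC and 6.12, 2.73 and 5.57 FPKM in GFP− HC (log2 difference 1.41 ± 0.27, adjusted p = 0.0125). Its call was lost without GFP+ replicate 3 and with a pseudocount of 0.1. Ikzf1, Bcl11a and Lyl1 rose by 1.29, 0.75 and 0.54, and the Lyl1 call was lost without GFP+ replicate 3 or GFP− replicate 1 or 3. Gata2, which starts the stem cell programme, was at 28.3, 29.9 and 27.2 FPKM in GFP+ HC and 17.9, 21.3 and 16.6 FPKM in GFP− HC (log2 difference 0.59 ± 0.12, adjusted p = 0.0179). Its call was lost without GFP+ replicate 1 or 2 or GFP− replicate 1 or 3. Partners of these factors that were abundant in both groups did not pass, with log2 differences of 0.19 for Lmo2, 0.15 for Ldb1 and −0.10 for Cbfb.

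Surface proteins of stem cells and leukocytes gave 14 higher and no lower genes among 38 tested, with a median of 0.65. Spn, the sialomucin CD43, was at 9.08, 11.5 and 9.01 FPKM in GFP+ HC and 0.667, 0.772 and 0.580 FPKM in GFP− HC (log2 difference 2.69 ± 0.15, adjusted p = 5.05e-06). The adhesion receptor gene Gpr56 was at 53.5, 77.4 and 60.3 FPKM in GFP+ HC and 6.57, 8.74 and 6.90 FPKM in GFP− HC (log2 difference 2.94 ± 0.19, adjusted p = 1.1e-05). Every GFP+ library of both genes exceeded every GFP− library several times over. Cd27, a receptor of the tumor necrosis factor family, was at 4.46, 7.14 and 10.95 FPKM in GFP+ HC and 0.865, 0.475 and 0.974 FPKM in GFP− HC (log2 difference 2.20 ± 0.28, adjusted p = 0.00103). Cd27 varied more among the GFP+ libraries than Spn and was highest in replicate 3. Procr, the protein C receptor EPCR, was at 104, 138 and 120.2 FPKM in GFP+ HC and 32.2, 42.3 and 35.4 FPKM in GFP− HC (log2 difference 1.69 ± 0.11, adjusted p = 1.71e-05). Cd44, a hyaluronan receptor, and Selplg, a selectin ligand, rose by 1.34 ± 0.21 and 1.41 ± 0.25, and Cd9 and Emcn, both abundant in GFP− HC too, by 0.78 ± 0.11 and 0.59 ± 0.09. Selplg lost its call with a pseudocount of 0.1. Cd34, Cd81 and Itga6 did not pass, with overlapping libraries and log2 differences of 0.40, −0.10 and 0.02.

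Of 35 receptors and adaptors of the tumor necrosis factor family with values 24 were tested. Of these 2 were higher and none lower (8.33% against 3.17% of all genes), and the median was 0.07. Beside Cd27 the other was Tnfrsf19, at 11.98, 10.8 and 9.54 FPKM in GFP+ HC and 4.14, 3.57 and 3.97 FPKM in GFP− HC (log2 difference 1.26 ± 0.12, adjusted p = 0.000196). At an unadjusted p under 0.05 there were 5 higher and 2 lower members, against 9.83% and 7.31% of all genes. Tnfrsf1a and Traf4, the most abundant members, were at 0.24 and −0.27 without passing.

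**Figure D3:**
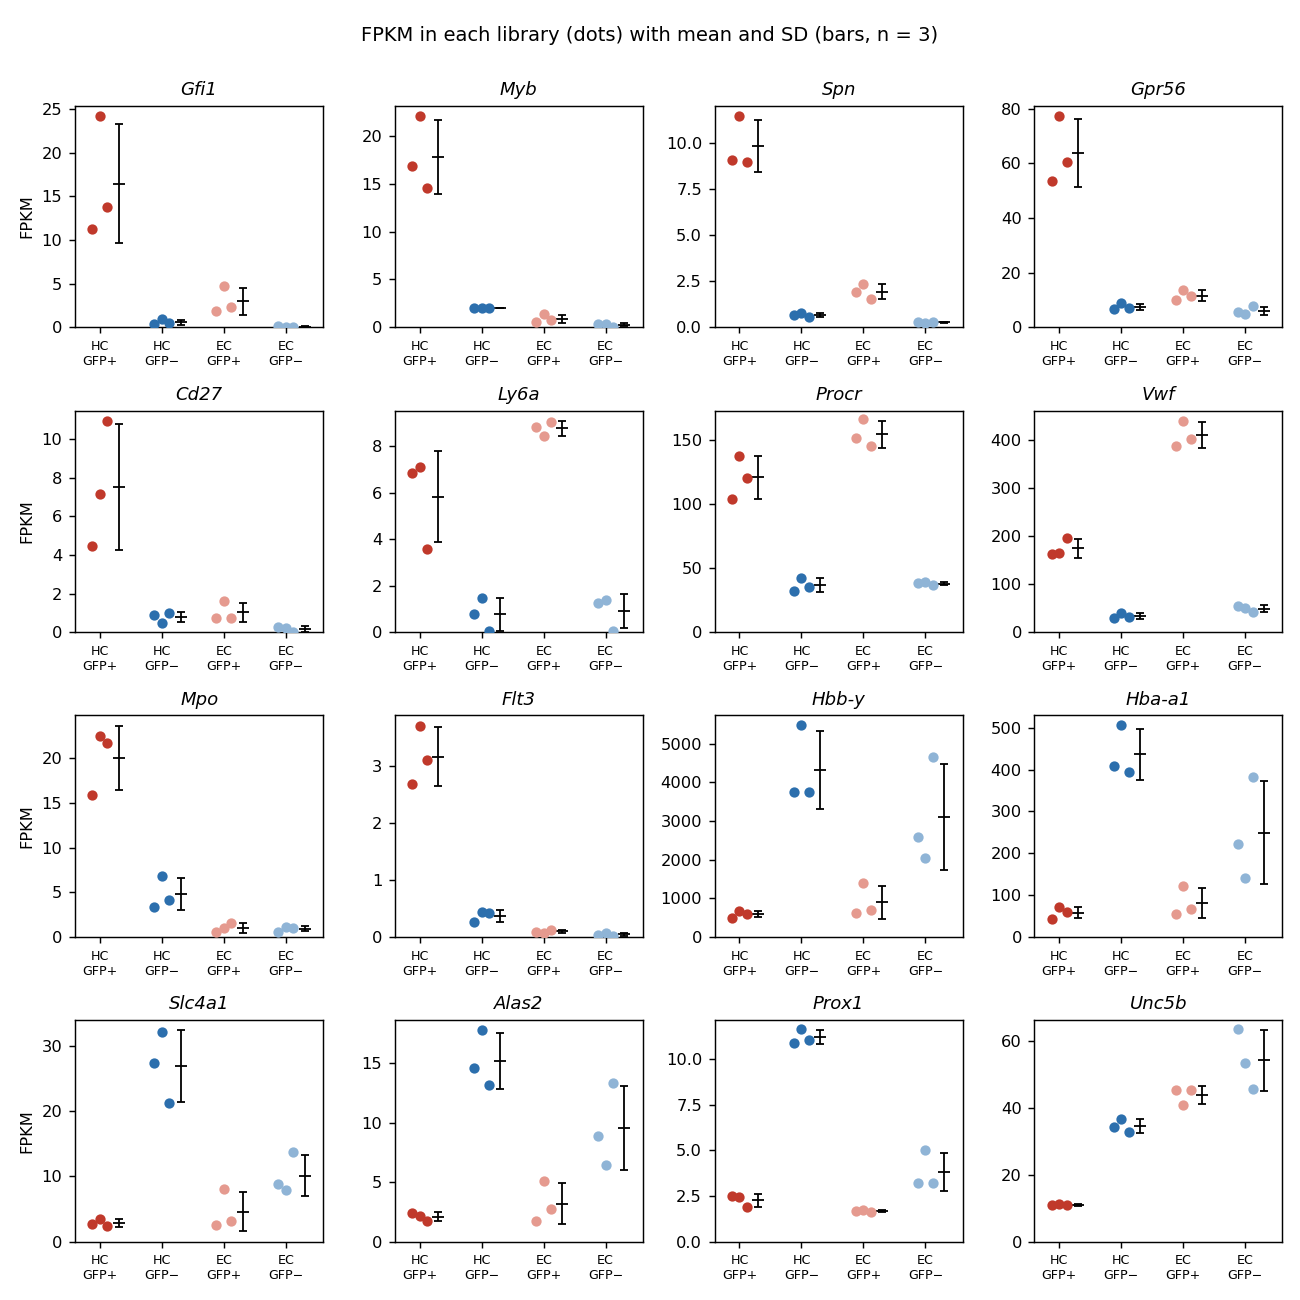
Dots are FPKM values of single libraries for 16 genes, on linear axes that start at 0, in GFP+ and GFP− HC and in GFP+ and GFP− EC, with mean and SD (n = 3) beside them. Gfi1, Myb, Spn, Gpr56 and Flt3 are highest in GFP+ HC, Procr, Vwf and Ly6a are high in the GFP+ cells of both types, and Prox1 is highest in GFP− HC.

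Of 44 receptors for growth factors and cytokines with values 34 were tested. They gave 8 higher and no lower genes, with a median of 0.33. In summed FPKM the list made up 0.0984% to 0.152% of the GFP+ libraries and 0.0787% to 0.101% of the GFP− libraries. These shares overlapped, and within each group they had the library order of macrophage RNA, whose part was not tested. The count of 8 became 5 without GFP+ replicate 1, 4 without GFP+ replicate 3 or GFP− replicate 1, and 3 without GFP− replicate 3. Flt3, a receptor of early lymphoid and myeloid progenitors, was at 2.68, 3.70 and 3.10 FPKM in GFP+ HC and 0.254, 0.435 and 0.414 FPKM in GFP− HC (log2 difference 1.60 ± 0.16, adjusted p = 0.000232). Il2rg, the chain shared by several interleukin receptors, was at 44.8, 40.1 and 38.2 FPKM in GFP+ HC and 19.8, 18.7 and 20.5 FPKM in GFP− HC (log2 difference 1.02 ± 0.12, adjusted p = 0.000628). Flt3 was weakly expressed in GFP− HC, whereas Il2rg was clearly present in both groups. Ifngr1, the interferon gamma receptor, rose by 0.55 ± 0.11, a call lost without GFP+ or GFP− replicate 3. Csf3r, the G-CSF receptor, rose by 0.96 ± 0.23, a call lost without any single HC library except GFP+ replicate 2, and without GFP+ EC replicate 3. Il1r1 rose by 0.51 ± 0.13, and kept its call only without GFP− EC replicate 3 among the single libraries left out. Csf1r, a receptor of macrophages, was at 85.8, 26.3 and 164 FPKM in GFP+ HC and 91.4, 27.6 and 69.0 FPKM in GFP− HC and did not pass (log2 difference 0.36 ± 0.58, adjusted p = 0.806). It was lowest in both libraries numbered 2, as the macrophage genes were.

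Signalling and cytoskeletal genes of leukocytes gave 12 higher and no lower genes of 50 tested, with a median of 0.59. In summed FPKM the list made up 0.290%, 0.232% and 0.399% of the GFP+ libraries and 0.252%, 0.156% and 0.213% of the GFP− libraries. These shares overlapped, and within each group they had the library order of macrophage RNA. The part of macrophages in the list's result was not tested. The count of 12 became 7 without GFP+ replicate 1, 3 without GFP+ replicate 3, 4 without GFP− replicate 2 and 5 without GFP− replicate 3. Plcg2, a phospholipase behind immune receptors, was at 25.5, 27.6 and 30.1 FPKM in GFP+ HC and 6.52, 4.86 and 5.74 FPKM in GFP− HC (log2 difference 2.10 ± 0.11, adjusted p = 3.79e-06). Ptk2b, the focal adhesion kinase relative PYK2, was at 10.8, 13.1 and 11.6 FPKM in GFP+ HC and 1.55, 1.16 and 1.60 FPKM in GFP− HC (log2 difference 2.40 ± 0.25, adjusted p = 0.000279). The tyrosine kinase gene Syk was at 18.3, 19.3 and 23.2 FPKM in GFP+ HC and 12.1, 11.3 and 11.2 FPKM in GFP− HC (log2 difference 0.76 ± 0.13, adjusted p = 0.00596). These 3 genes varied little within a group. Other risers moved more with the library. Dock2, a Rac activator of leukocytes, was at 8.69, 8.08 and 11.6 FPKM in GFP+ HC and 4.33, 1.84 and 3.75 FPKM in GFP− HC (log2 difference 1.31 ± 0.26, adjusted p = 0.0143), and its call was lost without GFP+ replicate 3. Sash3 rose by 1.15 (lost without GFP+ replicate 3 or GFP− replicate 2 or 3) and Myo1g by 1.01 (lost without the same 3 libraries). Ptpn7 rose by 0.65 (lost without any single HC library) and Cytip by 1.19 (lost without GFP+ replicate 2 or 3 or GFP− replicate 1 or 2). Coro1a, an actin regulator, had no overlap at 128, 108 and 231 FPKM in GFP+ HC and 90.7, 39.8 and 78.2 FPKM in GFP− HC but did not pass (log2 difference 1.15 ± 0.36, adjusted p = 0.112). Its highest and lowest libraries, GFP+ replicate 3 and GFP− replicate 2, were also those with the most and nearly the least macrophage RNA, whose part in the result was not tested. Outside the list, Pstpip1, a cytoskeletal adaptor, rose by 1.69 ± 0.22, and Dapp1, an adaptor of phosphoinositide signalling, by 1.81 ± 0.17.

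The granulocyte list had 12 tested of 27 members with values, since 15 did not reach 1 FPKM in at least 3 HC libraries. Of the 12 tested 3 were higher and none lower, with a median of 0.39. The list's share of summed FPKM overlapped between the groups. Within each group it had the library order of macrophage RNA, whose part was not tested. Mpo, the myeloperoxidase of granules, was at 15.9, 22.6 and 21.7 FPKM in GFP+ HC and 3.37, 6.78 and 4.16 FPKM in GFP− HC (log2 difference 1.90 ± 0.25, adjusted p = 0.00144). Prtn3, a granule protease, was at 13.3, 15.9 and 17.2 FPKM in GFP+ HC and 3.02, 2.52 and 1.57 FPKM in GFP− HC (log2 difference 2.31 ± 0.40, adjusted p = 0.00751). Csf3r was the third. Lyz2 and Fcgr3, which macrophages share, overlapped between the groups and did not pass, at 0.93 and 0.32. Prtn3 lost its call with a pseudocount of 0.1.

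Among 27 tested genes of megakaryocytes and platelets 6 were higher and 1 lower, with a median of 0.39. Within each group the list's share of summed FPKM had the library order of macrophage RNA, whose part was not tested. Vwf, the adhesive protein of platelets and endothelium, was at 162, 164 and 197 FPKM in GFP+ HC and 29.6, 40.7 and 30.4 FPKM in GFP− HC (log2 difference 2.35 ± 0.14, adjusted p = 5.6e-06). Selp, the P-selectin of platelet granules, was at 3.11, 1.99 and 2.496 FPKM in GFP+ HC and 0.153, 0.0726 and 0.109 FPKM in GFP− HC (log2 difference 1.66 ± 0.19, adjusted p = 0.000688). Selp was nearly undetected in all GFP− libraries. Nbeal2, needed for platelet alpha granules, rose by 1.14 ± 0.21 and the secretory GTPase gene Rab27b by 0.91 ± 0.21, whose call was lost without any one HC library, without GFP+ EC replicate 1 or without GFP− EC replicate 1. Nfe2, given above, was another. Clec1b, the receptor CLEC-2, was the one that fell, with a log2 difference of −0.73, and its call was lost without GFP+ replicate 1 or 3, GFP− replicate 1 or 2, GFP+ EC replicate 1 or GFP− EC replicate 1. Pf4, an abundant platelet chemokine, was at 129, 68.6 and 245 FPKM in GFP+ HC and 201, 84.7 and 153 FPKM in GFP− HC and did not pass (log2 difference −0.09 ± 0.79, adjusted p = 0.97).

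The lymphoid list had 12 tested of 30 members with values, and 2 were higher, Flt3 and Il2rg, with none lower and a median of 0.31. Lck, a kinase of T cells, was at 23.03, 31.9 and 24.1 FPKM in GFP+ HC and 35.6, 45.6 and 35.3 FPKM in GFP− HC without passing (log2 difference −0.55 ± 0.14, adjusted p = 0.0581). It fell past the threshold after quantile or upper-quartile scaling and without GFP+ replicate 2. Of 17 mast cell and basophil genes only 4 were tested, and 3 of them were higher, namely Kit, Gata2 and Srgn, none of which is particular to those cells. Srgn, the proteoglycan core of secretory granules, was at 57.3, 65.8 and 94.2 FPKM in GFP+ HC and 22.2, 16.8 and 21.4 FPKM in GFP− HC (log2 difference 1.77 ± 0.21, adjusted p = 0.000754). Macrophage genes gave 1 higher (4.35%, against 3.17% of all genes) and no lower of 23 tested, and the median was 0.36. No call of that list was left without any single HC library.

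Of 26 tested arterial and Notch genes 7 were higher and 1 lower, with a median of 0.32. Gja5, the arterial gap junction protein connexin 40, was at 25.6, 32.0 and 43.8 FPKM in GFP+ HC and 4.75, 6.79 and 6.09 FPKM in GFP− HC (log2 difference 2.32 ± 0.17, adjusted p = 2.87e-05). Jag1, a Notch ligand, was at 16.8, 17.3 and 17.4 FPKM in GFP+ HC and 6.74, 8.04 and 7.98 FPKM in GFP− HC (log2 difference 1.08 ± 0.12, adjusted p = 0.000492). Eln, which encodes elastin of arterial walls, was at 33.1, 30.5 and 51.5 FPKM in GFP+ HC and 10.8, 5.54 and 15.1 FPKM in GFP− HC (log2 difference 1.83 ± 0.32, adjusted p = 0.0073). The kinase gene Bmx, the TGF-beta binding protein gene Ltbp4, the Notch ligand gene Dll1 and the growth factor gene Vegfc rose by 1.18 ± 0.16, 1.15 ± 0.16, 0.84 ± 0.15 and 0.78 ± 0.15. Unc5b, a netrin receptor of arteries and sprouting vessels, went against the others and fell to 10.9, 11.2 and 10.9 FPKM in GFP+ HC, against 34.5, 36.9 and 32.7 FPKM in GFP− HC (log2 difference −1.57 ± 0.11, adjusted p = 1.71e-05). Its values hardly varied among the 3 GFP+ libraries. Of 30 genes expressed across endothelium 3 were higher (Emcn, Ptprb and Clec14a) and none lower, with a median of 0.15, and the call of Clec14a was lost without GFP− replicate 1. Without GFP− replicate 2 the count was 7.

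Of 16 tested venous and lymphatic genes 2 were higher (Vwf and Emcn) and 4 lower, with a median of 0.00, and all 4 lower genes are known from lymphatic endothelium. Prox1, the transcription factor that sets lymphatic identity, was at 2.53, 2.43 and 1.88 FPKM in GFP+ HC and 10.9, 11.6 and 11.05 FPKM in GFP− HC (log2 difference −1.90 ± 0.15, adjusted p = 5.52e-05). Flt4, the receptor VEGFR-3, was at 38.2, 45.4 and 33.1 FPKM in GFP+ HC and 69.6, 87.2 and 65.04 FPKM in GFP− HC (log2 difference −0.91 ± 0.15, adjusted p = 0.00456). Reln, which encodes the secreted protein reelin, was at 0.149, 0.713 and 0.332 FPKM in GFP+ HC and 4.41, 3.65 and 2.57 FPKM in GFP− HC (log2 difference −1.70 ± 0.29, adjusted p = 0.00606). The libraries of each gene were separate, and Prox1 was the steadiest within both groups. Pdpn, podoplanin, fell with a log2 difference of −1.41 ± 0.31, and the call was lost without any single HC library except GFP+ replicate 1. The venous receptor gene Ephb4 did not pass, at 0.13.

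**Figure D4:**
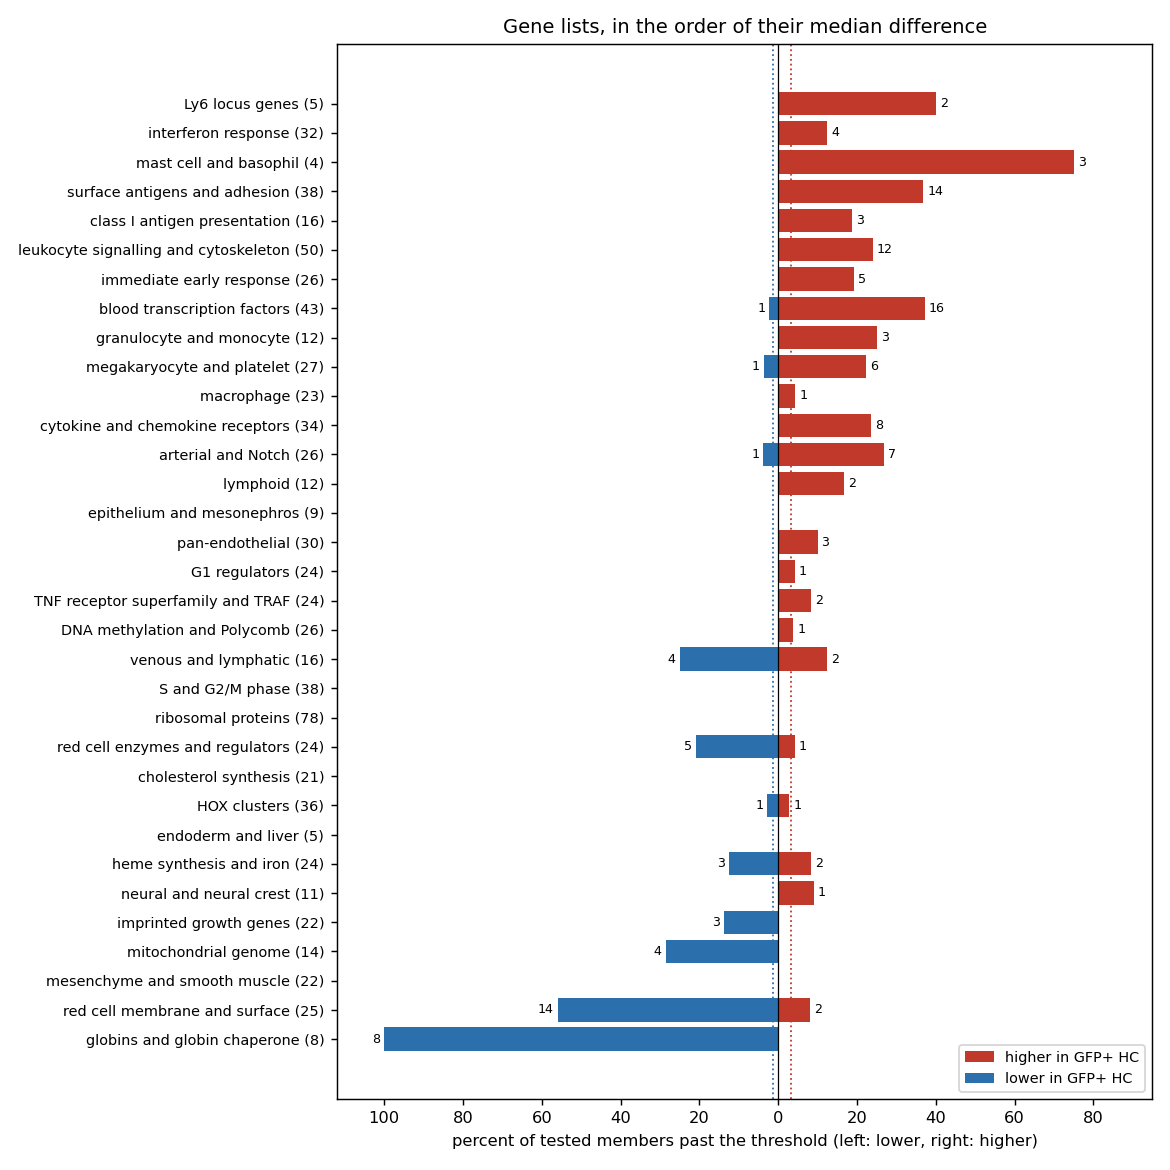
Bars give, for 33 gene lists, the percent of tested members that were lower (left, blue) or higher (right, red) in GFP+ HC than in GFP− HC, with the number of genes at each bar and the number tested in brackets. Dotted lines mark the shares of all tested genes, 1.38% lower and 3.17% higher, and the lists run from the highest median difference at the top to the globins at the bottom.

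Of 32 tested interferon response genes 4 were higher and none lower, with a median of 0.74. The count was 8 without GFP+ replicate 2, 2 without GFP+ or GFP− replicate 3, and 1 without GFP− replicate 1 or 2. At an unadjusted p under 0.05 there were 19 higher and none lower, against 9.83% and 7.31% of all genes. Ifitm1, an antiviral membrane protein also known from germ cells, was at 54.3, 75.2 and 74.1 FPKM in GFP+ HC and 18.0, 10.97 and 21.3 FPKM in GFP− HC (log2 difference 1.99 ± 0.45, adjusted p = 0.0289). Irf9, part of the transcription factor complex that interferon switches on, was at 15.3, 18.2 and 20.3 FPKM in GFP+ HC and 9.84, 9.75 and 10.8 FPKM in GFP− HC (log2 difference 0.76 ± 0.14, adjusted p = 0.0108). The Ifitm1 call was lost without any single HC library, whereas Irf9 kept its call whichever library of the 12 was left out. Xaf1 rose by 1.45 (lost without GFP− replicate 1 or 2). Oasl2 rose by 1.69, a call lost without any single library except GFP+ HC replicate 2 and GFP− EC replicate 3. The list's mean log2 level was 3.12, 2.86 and 3.97 in the GFP+ libraries and 2.55, 2.21 and 2.79 in the GFP− libraries. GFP+ replicate 3 was highest, as it was in macrophage RNA, and the part of macrophages in this result was not tested.

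Class I antigen presentation gave 3 higher and no lower genes of 16 tested, with a median of 0.64, and 1 higher gene without GFP+ replicate 1 or 3 or GFP− replicate 1 or 2. H2-D1, a class I heavy chain, was at 89.4, 82.8 and 149.6 FPKM in GFP+ HC and 47.7, 39.7 and 38.3 FPKM in GFP− HC (log2 difference 1.29 ± 0.18, adjusted p = 0.00218). The peptidase gene Erap1 rose by 0.73, lost without any single HC library except GFP− replicate 3. H2-K1, at 34.8, 24.0 and 79.6 FPKM in GFP+ HC and 20.2, 10.1 and 15.3 FPKM in GFP− HC, lay at the threshold (log2 difference 1.41 ± 0.36, adjusted p = 0.05). Its log2 difference was 0.94 without GFP+ replicate 3, and the call was lost in 20 of 25 alternatives. The class I list made up 0.263%, 0.236% and 0.310% of the summed FPKM of the 3 GFP+ libraries and 0.230%, 0.203% and 0.224% of the 3 GFP− libraries. Within each group it had the same library order as macrophage RNA, whose part in the result was not tested. Class I genes are polymorphic between the parental strains and similar to one another, so their reads may be shared.

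Immediate early genes gave 5 higher and no lower of 26 tested, with a median of 0.48, and 3 higher without GFP+ replicate 3 or GFP− replicate 1 or 3. The list made up 0.288%, 0.255% and 0.347% of the summed FPKM of the 3 GFP+ libraries and 0.236%, 0.195% and 0.209% of the 3 GFP− libraries. Within each group this is the library order of macrophage RNA, whose part in the result was not tested. Klf2, a factor that blood flow induces in endothelium, was at 118, 111 and 117 FPKM in GFP+ HC and 63.1, 78.1 and 56.4 FPKM in GFP− HC (log2 difference 0.81 ± 0.14, adjusted p = 0.00586). Klf4 was at 41.0, 42.4 and 47.2 FPKM in GFP+ HC and 18.1, 25.1 and 22.4 FPKM in GFP− HC (log2 difference 0.97 ± 0.17, adjusted p = 0.00835). The nuclear receptor gene Nr4a1 was at 70.6, 65.5 and 88.0 FPKM in GFP+ HC and 42.2, 40.1 and 40.8 FPKM in GFP− HC (log2 difference 0.84 ± 0.15, adjusted p = 0.00926). The 3 genes had no overlap between the groups. The general stress genes Jun and Junb had no overlap but did not pass, at 0.27 and 0.48. Socs3 rose by 0.64 (lost without GFP+ replicate 2 or 3 or GFP− replicate 1 or 3) and Nr4a2 by 1.35. Nr4a2 kept its call, among the single libraries left out, only without GFP+ EC replicate 2 or 3.

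None of 38 tested S and G2/M phase genes passed (limma), and the median was −0.10. At an unadjusted p under 0.05 there were 0 higher and 6 lower, against 9.83% and 7.31% of all genes. In 14 of the 38 all GFP+ values lay below all GFP− values (10.6% of all genes), and in 1 above (13.1%). Of 24 G1 regulators only Mycn was higher (4.17%, against 3.17% of all genes) and none was lower. Cdkn1c, the inhibitor p57 of resting stem cells, was at 261, 239 and 220.1 FPKM in GFP+ HC and 211, 197 and 213 FPKM in GFP− HC without passing (log2 difference 0.21 ± 0.08, adjusted p = 0.18). Trp53 was listed at 0 in GFP− replicate 2 and between 137 and 152 FPKM in the other 5 libraries, so its log2 difference is not given.

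Among 26 tested genes of DNA methylation and Polycomb 1 was higher (3.85%, near the 3.17% of all genes) and none lower, with a median of 0.02. Dnmt3b, a de novo methyltransferase, was at 23.2, 30.5 and 25.9 FPKM in GFP+ HC and 10.4, 12.9 and 10.5 FPKM in GFP− HC (log2 difference 1.16 ± 0.13, adjusted p = 0.000612). The maintenance enzyme gene Dnmt1 was at 68.9, 70.2 and 58.6 FPKM in GFP+ HC and 64.9, 68.6 and 60.7 FPKM in GFP− HC (log2 difference 0.02 ± 0.08, adjusted p = 0.922), with overlap. HOX cluster and cofactor genes gave 1 higher and 1 lower of 36 tested (2.78% each, against 3.17% and 1.38% of all genes). Hoxa9 rose by 0.71 ± 0.16, a call lost without any single HC library, and Hoxd9 fell with a log2 difference of −0.75 ± 0.12.

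Imprinted growth genes gave 3 lower and no higher of 22 tested, with a median of −0.20. Gnas, an imprinted gene of a G protein, was at 1269, 1475 and 1396 FPKM in GFP+ HC and 1925, 2239 and 2015 FPKM in GFP− HC (log2 difference −0.58 ± 0.08, adjusted p = 0.00251). Asb4, a gene of vascular development, fell with a log2 difference of −0.72. The amino acid transporter gene Slc38a4 fell with −0.39, a call lost without GFP+ replicate 3, any GFP− replicate or GFP+ EC replicate 1. The abundant H19 and Igf2 did not pass, at 0.03 and 0.15.

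Of 14 tested genes of the mitochondrial genome 4 were lower and none higher, with a median of −0.44. The respiratory complex I gene mt-Nd5 was at 263, 286 and 270.0 FPKM in GFP+ HC and 413, 456 and 519.6 FPKM in GFP− HC (log2 difference −0.75 ± 0.15, adjusted p = 0.0139), a call lost without GFP+ replicate 1 or 3 or GFP− replicate 3. The calls of mt-Nd4, mt-Nd6 and mt-Nd2, at −0.57, −0.82 and −0.68, were lost without any single HC library. They were also lost without some of GFP+ EC replicate 1 and GFP− EC replicates 1 and 2. The share of mitochondrial genes in the summed FPKM was 3.80% to 4.96% in GFP+ HC and 5.11% to 5.73% in GFP− HC. None of 78 ribosomal protein genes passed, with a median of −0.10. At an unadjusted p under 0.05 there were 0 higher and 3 lower, against 9.83% and 7.31% of all genes. After quantile normalization the median was 0.03 and 5 were higher, and with an equal upper quartile 1 was lower. None of 21 cholesterol synthesis genes passed either, with a median of −0.12. Of these 4 were lower at an unadjusted p under 0.05, against 7.31% of all genes.

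Markers of other tissues were read in the same fit. None of 22 mesenchyme and smooth muscle genes passed, although the median was −0.80. Before adjustment 9 were lower (unadjusted p under 0.05), against 7.31% of all genes. After quantile normalization, or without GFP− replicate 2, 1 of the 22 was lower. Col1a1, the collagen I chain of connective tissue, was at 150.1, 58.2 and 83.0 FPKM in GFP+ HC and 373, 118 and 363 FPKM in GFP− HC (log2 difference −1.48 ± 0.63, adjusted p = 0.254), with overlap through GFP− replicate 2. None of 9 epithelial and mesonephros genes and none of 5 endoderm and liver genes passed, with 1 epithelial gene lower at an unadjusted p under 0.05. Of 11 neural and neural crest genes 1 was higher. This was Stmn2, a microtubule regulator known from neurons, at 64.8, 67.7 and 75.5 FPKM in GFP+ HC and 11.7, 11.3 and 12.6 FPKM in GFP− HC (log2 difference 2.45 ± 0.11, adjusted p = 6.65e-07). Stmn2 had the smallest p among the genes named here that rose, while the neuronal growth protein gene Gap43 was at 0.04 and did not pass.

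Several of the largest rises fall outside these families. Adrb1, the beta-1 adrenergic receptor, was at 22.1, 18.9 and 19.5 FPKM in GFP+ HC and 3.56, 3.53 and 2.64 FPKM in GFP− HC (log2 difference 2.32 ± 0.20, adjusted p = 7.81e-05). Cytl1, a small secreted protein, was at 7.21, 6.17 and 11.3 FPKM in GFP+ HC and 0.707, 0.797 and 0.981 FPKM in GFP− HC (log2 difference 2.30 ± 0.23, adjusted p = 0.000259). Ptprcap, a protein bound to CD45, was at 10.2, 16.3 and 15.2 FPKM in GFP+ HC and 1.79, 2.80 and 1.68 FPKM in GFP− HC (log2 difference 2.26 ± 0.25, adjusted p = 0.000537). All 3 were low in every GFP− library. Next to Ly6a on the chromosome, Ly6c1 rose by 0.87 ± 0.17, a call lost without GFP− replicate 3, while Ly6e, Gpihbp1 and Ly6h did not pass, at 0.99, −0.54 and −0.36.

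The same GFP comparison in the EC of these arteries, made from other libraries in the same fit, gave 880 higher and 856 lower genes (6.91% and 6.72%). Of the 404 genes higher in GFP+ HC 246 were also higher in GFP+ EC, which is 60.9% of the HC genes and 28.0% of the EC genes, and none was lower. Of the 176 genes lower in GFP+ HC 97 were also lower in GFP+ EC, which is 55.1% of the HC genes and 11.3% of the EC genes, and none was higher. The 404 risers were most abundant in GFP+ HC in 239 cases and in GFP+ EC in 165, among the 4 populations. The 176 genes that fell were most abundant in GFP− HC in 90 cases, in GFP− EC in 83 and in GFP+ EC in 3. Over all tested genes the shares were 30.5% for GFP+ HC, 18.9% for GFP− HC, 21.2% for GFP+ EC and 29.4% for GFP− EC. The call itself keeps risers from being most abundant in GFP− HC, and genes that fell from being so in GFP+ HC. Their counts are thus partly fixed and not directly comparable with the shares of all genes. Of the risers 38 (9.41%) were under 1 FPKM on average in both EC groups, beside 3.25% of all tested genes. Among the genes that fell it was 11 (6.25%). The filter read the HC libraries only, so a gene expressed in GFP+ HC alone could pass it and be called a riser. These shares may thus partly reflect that selection and are not directly comparable with the share of all genes.

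The globin difference was present in both cell types. Hbb-y was at 608, 1391 and 688 FPKM in GFP+ EC and 2599.9, 2047 and 4669 FPKM in GFP− EC (log2 difference −1.80 ± 0.34, adjusted p = 0.00584). The test of the difference between its effects in HC and in EC did not pass (HC minus EC −1.06 ± 0.48, adjusted p = 0.43), nor did that of Gfi1 (1.55 ± 0.42, adjusted p = 0.146) or Cd27 (1.43 ± 0.39, adjusted p = 0.151). Of the 26 arterial and Notch genes 15 were higher in GFP+ EC and none lower, and for 6 of them the effect was more negative in HC than in EC by the test of the difference. Vwf was at 388, 441 and 403 FPKM in GFP+ EC and 55.2, 49.9 and 41.5 FPKM in GFP− EC, and its GFP+ EC values lay above those of GFP+ HC.

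The effect of GFP differed between HC and EC for 69 genes, 27 with a more positive effect in HC (0.212%) and 42 with a more negative one (0.33%). Of the 580 genes called in HC 33 were among them. Myb was at 0.513, 1.34 and 0.720 FPKM in GFP+ EC and 0.370, 0.337 and 0.0532 FPKM in GFP− EC, and its effect in HC was larger (HC minus EC 2.08 ± 0.28, adjusted p = 0.00937). Gpr56 behaved likewise, at 9.80, 13.6 and 11.3 FPKM in GFP+ EC and 5.43, 4.82 and 7.75 FPKM in GFP− EC (2.08 ± 0.26, adjusted p = 0.00619). Dnmt3b was at 11.96, 8.82 and 9.71 FPKM in GFP+ EC and 10.7, 10.5 and 9.94 FPKM in GFP− EC, where the libraries overlapped (1.20 ± 0.19, adjusted p = 0.0176). Unc5b was at 45.4, 40.9 and 45.5 FPKM in GFP+ EC and 63.7, 53.6 and 45.7 FPKM in GFP− EC, so that it was lowest in GFP+ HC among the populations (−1.28 ± 0.15, adjusted p = 0.00549). The secreted protease gene Htra1 was at 11.2, 8.51 and 12.95 FPKM in GFP+ HC and 3.42, 2.75 and 3.54 FPKM in GFP− HC, a smaller step than the 86.6, 102 and 102 FPKM in GFP+ EC and 6.46, 3.71 and 6.62 FPKM in GFP− EC (−2.45 ± 0.27, adjusted p = 0.00416). The count of 69 fell to 38 without GFP+ HC replicate 1, 21 without GFP+ HC replicate 2, 30 without GFP− HC replicate 1 and 35 without GFP− HC replicate 3. It was 33 without GFP+ EC replicate 1, 31 without GFP+ EC replicate 3 and 40 without GFP− EC replicate 1.

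**Figure D5:**
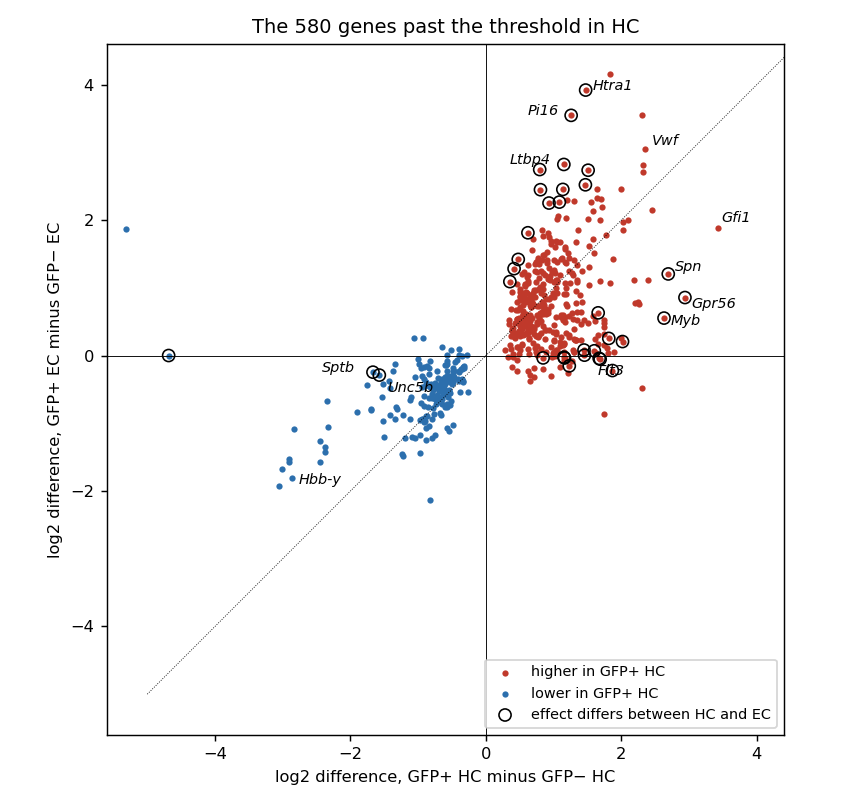
Each point is 1 of the 580 genes past the threshold in HC, with its log2 difference between GFP+ and GFP− HC on the horizontal axis and that between GFP+ and GFP− EC on the vertical axis. Circled genes had a different effect in the 2 cell types, such as Myb, Gpr56 and Spn (larger in HC) and Htra1, Pi16 and Ltbp4 (larger in EC), and the dotted line marks equal effects.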

How the data were processed

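RNA of 12 samples (GFP+ and GFP− HC, GFP+ and GFP− EC, 3 of each) was selected for poly(A) and made into libraries with NEBNext Ultra kits, per the labels' protocols. The labels call the 3 samples of a population independent, but all came from 1 pool of embryos, so p-values measure the spread between these samples, which may be technical. The deposited values are FPKM per gene made by the authors. The submitters' processing notes name Cufflinks, featureCounts, edgeR, DESeq and mm9 without roles or versions. The aligner, annotation, strand setting and scaling were not given in the sources used here. FPKM values did not resolve into whole reads, so the depth is unknown, no counting interval was given and no count test was run. Paralogs, overlapping genes and antisense genes may share reads. No column was left unmapped (0).

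The values were fitted as log2(FPKM + 1) in limma 3.58.1 (R 4.3.3), with 4 group means over 12 libraries, an intensity trend and empirical Bayes variances. A gene was called at a Benjamini-Hochberg adjusted p under 0.05 over the 12730 tested genes, and the difference of effects between HC and EC came from the same fit. The fit was also run on simulated data with independent noise in each library. That run does not cover the single pool of embryos or the macrophage and mesenchyme RNA that varied between libraries.

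The groups, gene lists and tests were chosen with earlier results of these data known. There were 33 lists with the design and 4 added after values were seen, together 1045 distinct genes, of which 34 had no row. Lists are described by counts and medians and were not tested. The named genes were the sort and reporter genes, and the 12 largest called rises and falls without overlap and with a mean of at least 5 FPKM in the higher group. From each list up to 8 called members by p, up to 2 called the other way and the 3 most abundant that did not pass were taken, and 6 a side for the difference of effects. Hlf, Runx1, Ikzf1, Bcl11a and Lyl1, the genes listed at 0 in 1 library and the genes in the closing section that were given no other part in the report were chosen after their values were seen. Alternatives changed the pseudocount, the filter, the scaling, the trend, the libraries in the fit and the replicate block. Promoters were read from the RefSeq table of GRCm38.p6, which is not the build of the values, and were used for their letters only. Some called members of the lists are counted but their values are not reported here.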

Additional observations from a re-analysis of the deposited data

Results flagged for a closer look

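The effect of GFP differed between HC and EC, by limma's test of the difference itself, for 20 of the genes named here. The values are log2 differences of the effects, HC minus EC, each past an adjusted p of 0.05. For 11 genes the effect was more positive in HC. It was larger by 2.08 for Gpr56 (log2 difference 2.94 in HC and 0.86 in EC), and by 2.08 for Myb. Pglyrp2, which encodes a peptidoglycan-cleaving enzyme, differed by 1.81 (2.02 in HC and 0.21 in EC), and the cytoskeletal adaptor gene Pstpip1 by 1.74. Treml2, a receptor of myeloid and lymphoid cells, differed by 1.71, and the signalling adaptor gene Dapp1 by 1.56. The receptor gene Flt3 differed by 1.53 (1.60 in HC and 0.07 in EC) and the sialomucin gene Spn by 1.49 (2.69 in HC and 1.20 in EC). Dnmt3b differed by 1.20, Mycn by 0.88 and the cell cycle inhibitor gene Cdkn1c by 0.70, of which Cdkn1c did not pass in HC.

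For 9 genes the effect was more negative in HC. The Notch ligand gene Jag1 differed by −1.18 (1.08 in HC and 2.27 in EC), so that it rose in both cell types and by more in EC. Unc5b differed by −1.28, the actin-binding protein gene Synpo by −1.32 and the spectrin gene Sptb by −1.42. Ltbp4 differed by −1.67 (1.15 in HC and 2.82 in EC), the collagen-modifying enzyme gene P4ha3 by −1.75 (0.59 in HC, where it did not pass, and 2.34 in EC), Pi16 by −2.29 (1.26 in HC and 3.55 in EC) and Htra1 by −2.45. The predicted gene Gm22027 differed by −4.68, a size that depends on the pseudocount, since it was listed at 0 in all libraries but the 3 of GFP− HC, at 24.3, 24.7 and 25.2 FPKM.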

How the results depend on the processing

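With 404 genes higher and 176 lower in GFP+ HC as reported, a minimum mean of 5 FPKM gave 250 and 112, with fewer genes tested, and quantile normalization gave 421 and 265. Leaving out both HC libraries numbered 2, a choice made after the values were seen, gave 168 and 50. With single libraries of the 12 left out the counts were 234 to 454 higher and 88 to 223 lower. The other scalings, the pseudocount of 0.1, no filter, no trend, the HC libraries alone and the genes at 0 in 1 library left out gave 302 to 443 higher and 119 to 214 lower. The share of higher genes among the called was 69.7%, 61.4% after quantile normalization, 76.2% with an equal sum of FPKM and 77.1% without both libraries numbered 2. The 69 genes whose effect differed between HC and EC became 38 with a pseudocount of 0.1 and 29 with a mean of 5 FPKM. They became 131 with an equal sum of FPKM, 146 with that sum taken without globins, 26 without both HC libraries numbered 2, and 21 to 76 without single libraries. The causes of these shifts were not tested.

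Same-numbered GFP+ and GFP− HC libraries had correlations of −0.02, 0.34 and −0.08 in their deviations from the group means. The pair numbered 2 alone correlated best with its own number. With 3 libraries in each group, such correlations cannot decide whether the samples were paired. Across numbers, GFP+ replicate 1 with GFP− replicate 3 was at 0.23 and GFP+ replicate 3 with GFP− replicate 1 at 0.27. The other cross pairs were at −0.29 to −0.11. What the positively correlated libraries share was not tested, and the main fit holds no pairing. The replicate block gave 409 higher and 234 lower genes over 12 libraries, 284 and 147 over the 6 HC libraries, and 70 genes for the difference of effects. With it 8 (12 libraries) and 7 (6 HC libraries) of the 22 mesenchyme and smooth muscle genes were lower, Col1a1 among them, where none passed without it, and it also called Lck lower. Of 155 named genes past the threshold 58 stayed past it under all 25 alternatives and 22 under the 24 that tested them, since they fell below a mean of 5 FPKM, and none of the 254 named genes took a called opposite sign. Without both libraries numbered 2, the higher calls numbered 9 of 43 transcription factors, 10 of 38 surface proteins and 2 of 50 leukocyte signalling genes, and the lower calls 6 globins and 8 red cell membrane genes.

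Depth is unknown, and values below 1 FPKM carry little weight. The groups hold 3 samples each from 1 pool, so the spread between litters was not measured. Under each scaling the median difference over all genes moved by less than 0.1.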

Other observations

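Gene lists chosen after values were seen are described by their counts and medians, beside 3.17% higher and 1.38% lower among all tested genes, and support nothing on their own. Of 31 tested innate sensors and inflammasome genes 11 were higher in GFP+ HC and none lower, with a median log2 difference of 0.51. The list made up 0.0419%, 0.0304% and 0.0518% of the summed FPKM of the 3 GFP+ libraries and 0.0293%, 0.0198% and 0.0260% of the 3 GFP− libraries. Within each group this is the library order of macrophage RNA, whose part in the result was not tested. Pglyrp2 was at 4.44, 5.71 and 4.82 FPKM in GFP+ HC and 0.486, 0.636 and 0.317 FPKM in GFP− HC (log2 difference 2.02 ± 0.24, adjusted p = 0.000842). Gsdmd, which encodes the pore protein of pyroptosis, was at 12.3, 9.72 and 16.2 FPKM in GFP+ HC and 6.23, 3.65 and 5.26 FPKM in GFP− HC (log2 difference 1.18 ± 0.19, adjusted p = 0.00453). The groups of both genes stood apart, with Pglyrp2 low in every GFP− library. Aim2, a sensor of DNA in the cytosol, rose by 0.78, and Irak3, a brake on Toll-like receptor signalling, by 1.23. The sensors of bacterial proteins Naip2, Naip5 and Naip6 rose by 0.84, 1.0 and 1.05, although these paralogs are similar and may share reads. Sigirr rose by 0.61, a call lost without GFP− replicate 1. Nod1 rose by 0.46, a call lost without any single HC library and without GFP+ EC replicate 1 or 3 or GFP− EC replicate 1.

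Of 29 coagulation and fibrinolysis genes with values 17 were tested. Of these 6 were higher and 1 lower, with a median of 0.29. Within each group the list's share of summed FPKM had the library order of macrophage RNA, whose part in the result was not tested. Besides Vwf and Procr, Entpd1, the ATP-cleaving enzyme CD39, was at 107, 101 and 144 FPKM in GFP+ HC and 36.0, 33.7 and 53.4 FPKM in GFP− HC (log2 difference 1.51 ± 0.21, adjusted p = 0.00189). Thrombomodulin, from Thbd, was at 40.0, 42.7 and 41.9 FPKM in GFP+ HC and 17.5, 20.6 and 18.6 FPKM in GFP− HC (log2 difference 1.10 ± 0.08, adjusted p = 3.97e-05). Neither gene overlapped between the groups. Both proteins are known to restrain clotting or platelet activation, as is Procr, whereas the clotting factor genes F5 and F10 rose by 1.52 and 1.83. Plau, the urokinase, fell with a log2 difference of −0.68, a call lost without GFP+ replicate 1 or 2, any GFP− replicate or GFP+ EC replicate 3.

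Of 24 tested genes of secretory granule release 8 were higher and none lower, with a median of 0.39, and 5 were higher without any one HC library except GFP− replicate 3. The list made up 0.0620%, 0.0597% and 0.0711% of the summed FPKM of the 3 GFP+ libraries and 0.0467%, 0.0374% and 0.0434% of the 3 GFP− libraries. Within each group this is the library order of macrophage RNA, whose part in the result was not tested. Rab27a, a GTPase that docks granules, was at 22.1, 25.8 and 23.4 FPKM in GFP+ HC and 7.04, 6.74 and 7.996 FPKM in GFP− HC (log2 difference 1.58 ± 0.14, adjusted p = 0.000121). Rab38, a GTPase of lysosome-related organelles, rose by 1.74, and the vesicular monoamine transporter gene Slc18a2 by 1.17. Unc13d rose by 1.01, a call lost without any single HC library. Of 21 tested basement membrane genes 4 were higher and 3 lower, with a median of −0.03. The laminin chain gene Lama5 rose by 1.56, whereas Col15a1 and Nid2 fell with log2 differences of −0.95 and −0.66. Lama4 fell with −0.59, a call lost without GFP+ replicate 1 or 3 or GFP− replicate 2 or 3. The count of 4 higher genes was 1 without GFP+ HC replicate 3, and 2 without GFP+ HC replicate 1 or 2, GFP− HC replicate 1 or 3 or any GFP+ EC library.

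The small nucleolar RNA gene Snora33 was listed at 0, 0 and 0 in GFP+ HC and at 62.3, 21.2 and 43.3 FPKM in GFP− HC, a call lost without any single HC library except GFP− replicate 2. No fold is given against 0.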
